A study of Gallus gallus with 100 samples.

Results

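Whole pituitary glands of heat-stressed male Ross 708 broilers, a chicken line grown for meat, were compared between day 42 and day 22 after hatch. The members are the heat stress columns of the day 42 table, from 17 birds, and those of the day 22 table, from 13 birds, each with a label that gives its number. These 30 libraries are part of 98 labelled libraries with values, out of 100 labelled samples in the series. From day 21 the experimental house was heated to about 35 to 37 °C for 8 hours of each day, while the control house stayed at 25 °C. Birds of day 42 had lived through 3 weeks of this daily cycle, and birds of day 22 through 8 hours of heat. Matched control glands of day 42 (10 birds) and day 22 (10 birds), and heat-stressed glands of day 26 (5 birds), day 32 (6 birds) and day 40 (5 birds), were used to place the comparison. The heat-stressed birds of the compared days shared a single house, and every library came from the whole gland of a single bird. Whether the birds of days 26, 32 and 40 were in it is not stated in their labels. Heat and age go up together between the compared days, so the length of heat exposure and age cannot be told apart within the heat-stressed birds.

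The pituitary gland joins tissues of different origin. The anterior lobe is an epithelial gland whose somatotrophs, lactotrophs, thyrotrophs, gonadotrophs and corticotrophs each secrete their own peptide hormone under the control of releasing and inhibiting signals from the hypothalamus. The posterior lobe is an outgrowth of the brain, made of axon endings and of glial cells named pituicytes, and it makes none of the anterior lobe hormones. Myelin, the membrane sheath around axons, is made by oligodendrocytes in nervous tissue and is not a product of the anterior lobe.

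Levels were given as FPKM, which scales the fragments of each gene to its length and to the size of its library, in 1 table per day. The tables were made separately, so every difference between days was set across tables whose common scale is this division alone. There were 13931 genes at day 42 and 14174 at day 22, and 12373 symbols were in both. Of these, 8249 averaged 1 FPKM or more in the 30 glands and were tested with limma on log2(FPKM + 1), and the other 4124 averaged less. A gene near 0 on 1 day passed this filter only through its level on the other. The share of a list that was called therefore depends partly on the filter. Calls needed a Benjamini-Hochberg adjusted p below 0.05 together with a 2-fold change on that log scale, where the added 1 makes the change of weakly expressed genes look smaller than it is. P-values measure the spread between these birds. The locus bounds given for a gene differed between the day 42 and day 22 tables for 52.6% of the genes tested. Among genes whose bounds were the same at both days, 12.9% were called higher and 18.5% lower at day 42, and among those with differing bounds 11.8% and 21.6%. Reads per library were not analysed, so no counting interval was computed. Judged by the smallest steps between low values, 16 of the day 42 libraries had 0.0442 to 0.354 of the depth of the deepest library of their table, and the day 22 libraries 0.616 to 0.966 of that of theirs. In the day 42 library 984, 50.9% of the genes listed at both days were at 0, against 12.8 to 26.0% in the other 16 of its group. A value of 0 there was therefore not read as absence. No library number is shared between days, and the numbers fall into ranges. At day 42 they were below 1100 in 10 birds, 1200 to 1400 in 2 and 1400 to 1500 in 5, and at day 22 they were 1200 to 1400 in 2 and 1500 or above in 11. Only the range 1200 to 1400 therefore held birds of both days.

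Of the 8249 genes, 1016 (12.3%) were higher and 1658 (20.1%) were lower at day 42, which together is 32.4% of the genes tested. The counts of every list below are to be read beside these shares. An unadjusted p under 0.05 was found for 5280 genes. The median log2 fold change over all genes was -0.15. All glands of one day lay above all glands of the other in 1349 genes (16.4%), with day 42 above in 309 (3.75%) and below in 1040 (12.6%). These counts are not symmetric. A gene listed at 0 in library 984 cannot count as above but can still count as below. The 50.9% at 0 there is a share of all genes listed at both days. Those include genes averaging below 1 FPKM, which were not tested. After each library was rescaled to the same FPKM total (TPM), 639 genes were higher and 3005 lower at day 42 and the median moved to -0.71. After rescaling to the median gene, 1192 were higher and 1433 lower. With the range of library numbers in the fit, 1002 were higher and 807 lower, so the excess of lower genes reversed there. In bulk tissue, fewer cells of a type and less RNA per cell cannot be told apart, and this holds for every gene below.

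**Figure D1:**
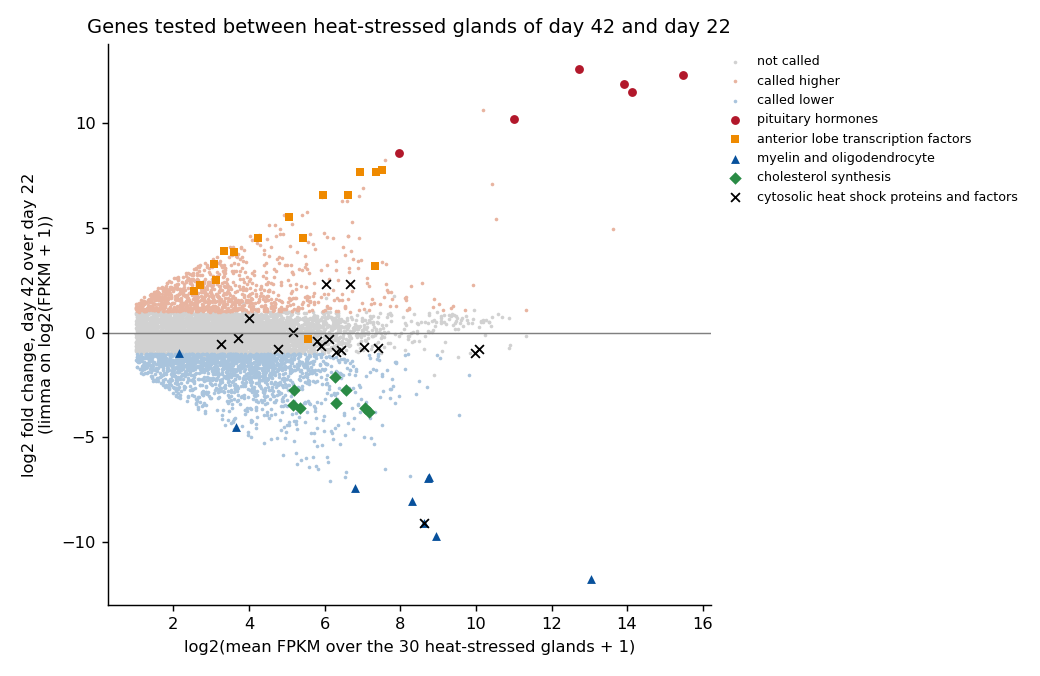
Each point is a tested gene, with log2 of its mean FPKM plus 1 over the 30 heat-stressed glands on the x axis and its log2 fold change, day 42 over day 22, on the y axis. The 6 hormone genes lie between 8.56 and 12.54, the myelin list has a median of -7.43, and 14 of the 17 heat shock genes lie between -1 and 1.

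The hormone genes had the highest median change of the lists tested. All 6 that were tested, of 7 listed members, were higher at day 42. Their median log2 fold change was 11.65, beside -0.15 over all genes, and none overlapped between days. LHB was not analysed here. GH, growth hormone of the somatotrophs (Entrez 378781, chromosome 27, 1611795 to 1620202 on the Gallus gallus version 4 genome, bounds as in the day 22 table), had a lowest, median and highest level of 18973, 73319 and 157459 FPKM in day 42 glands, against 5.62, 13.4 and 19.9 FPKM in day 22 glands. The groups were far apart, by a log2 fold change of 12.30 ± 0.21 (SE; adjusted p = 2.82e-31) and a ratio of means of 5712. PRL, prolactin of the lactotrophs (chromosome 2, 58655088 to 58661243), reached 2858, 10429.6 and 22765 FPKM at day 42, against 0, 0.157 and 24.1 FPKM at day 22, where 6 of 13 glands were listed at 0 (log2 fold change 12.54 ± 0.37, adjusted p = 8.83e-25). CGA, the alpha subunit that thyrotropin and the gonadotropins share (chromosome 3, 76000214 to 76009651), had 9488, 25916 and 85934 FPKM at day 42 and 0.381, 6.75 and 331 FPKM at day 22 (11.47 ± 0.63, adjusted p = 2.31e-17). The beta subunits that give these hormones their identity moved with it. TSHB, of thyrotropin, had 1062, 3468 and 6272 FPKM at day 42, against 0, 2.20 and 9.65 FPKM at day 22 with 5 glands listed at 0 (10.20 ± 0.35, adjusted p = 6.84e-23). FSHB, of follicle-stimulating hormone, had 111, 394 and 915 FPKM at day 42 and at most 0.0475 FPKM at day 22, with 9 of 13 glands listed at 0 (8.56 ± 0.22, adjusted p = 1.85e-26). POMC, the corticotroph precursor of corticotropin and melanocyte-stimulating hormone (chromosome 3, 105015085 to 105016660), had 3392, 22624 and 91471 FPKM at day 42 and 0.0828, 5.41 and 89.2 FPKM at day 22 (11.83 ± 0.62, adjusted p = 6.92e-18).

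These hormones are products of the anterior lobe, which is a part of the labelled whole gland. Summed over the list they came to 91286 to 235596 FPKM in each day 42 gland (median 156260.0) and to 12.4 to 425 FPKM in each day 22 gland (median 29.9). The day 22 glands thus held these anterior lobe markers at a small part of the day 42 level, and are called here by their label. The cause, and whether the label covers the same tissue on both days, were not tested. Within the only shared range of library numbers, GH had 103977 and 73319 FPKM in the day 42 libraries 1317 and 1319, against 16.7 and 11.5 FPKM in the day 22 libraries 1282 and 1283. PRL in the same libraries had 14223 and 13723 FPKM at day 42, against 4.24 and 0 FPKM at day 22. The difference between days was thus also seen inside that range, with 2 birds a side.

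**Figure D2:**
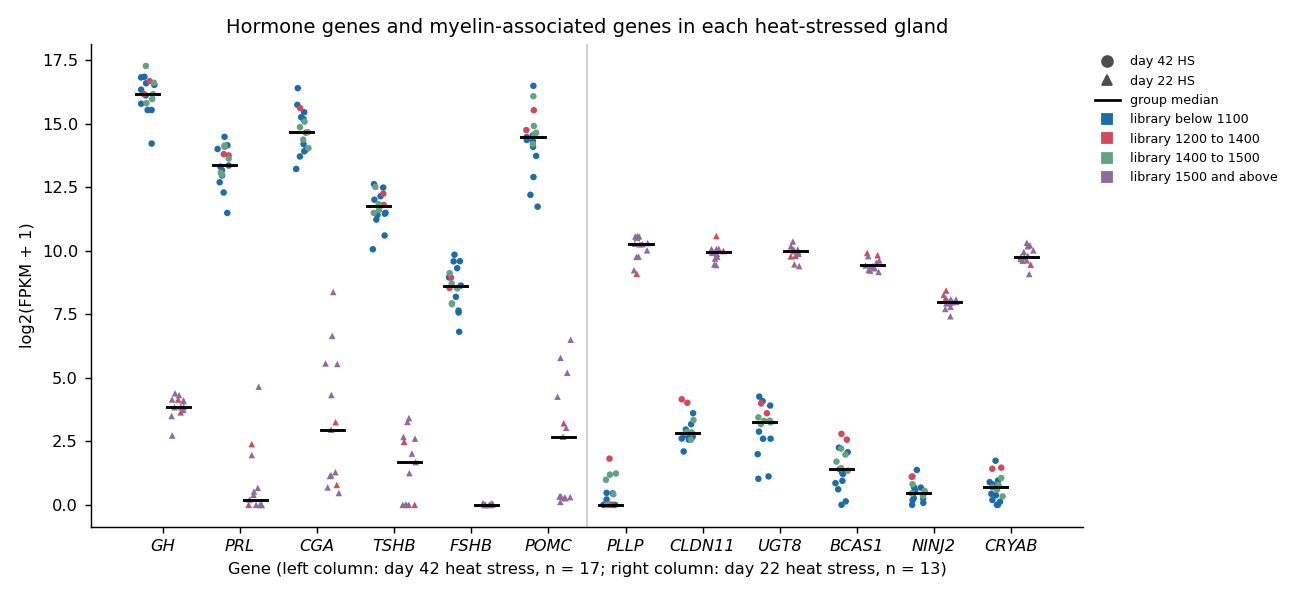
Each symbol is 1 heat-stressed gland, with log2(FPKM + 1) on the y axis and genes along the x axis, day 42 (circles, n = 17) to the left of day 22 (triangles, n = 13), colour giving the range of library numbers and bars the group medians. The 2 days do not overlap in any of the 12 genes drawn, and at day 22 CGA and POMC spread the most, from 0.381 to 331 and from 0.0828 to 89.2 FPKM.

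The hormone genes also differed from gland to gland at day 22. CGA was 331 FPKM in library 1522, 99.1 in 1549, 46.3 in 1558 and 45.6 in 1520, and 0.381 to 19.0 FPKM in the other 9. POMC was highest in 1522, 1558 and 1549, at 89.2, 54.0 and 35.6 FPKM. LHX3, a transcription factor that the anterior lobe needs to form, was 9.75 FPKM in library 1522 and at most 0.956 FPKM in the other 12. PRL did not follow that order, with 24.1 FPKM in library 1558 and 0 in library 1522. The median over genes of the SD of log2(FPKM + 1) was 0.62 among day 42 glands, 0.55 without library 984, and 0.28 among day 22 glands. For the typical gene the day 22 libraries were thus the more alike. The day 42 libraries were also shallower relative to the deepest of their table and fell into more ranges of numbers. The part of depth and range in this spread was not tested.

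Transcription factors of the anterior lobe were higher at day 42 in 15 of the 16 tested (18 of 21 members were listed at both days). With no filter on low values all 18 were tested, and 15 were higher. The median was 4.19 on the log2 scale, and 11 did not overlap. POU1F1, which drives GH, PRL and TSHB, had 101, 214 and 349 FPKM as its lowest, median and highest level at day 42, against at most 0.109 FPKM at day 22 with 3 glands listed at 0 (log2 fold change 7.63 ± 0.14, adjusted p = 3.19e-31). LHX3 had 116, 341 and 604 FPKM at day 42 and a median of 0 at day 22 (7.76 ± 0.28, adjusted p = 3.31e-22). Both factors act across several hormone lineages. Those tied to fewer lineages rose too. NEUROD1 had a median of 103 FPKM at day 42, against 0 at day 22 (6.54 ± 0.16), NR5A1, the gonadotroph factor, 51.6 against 0 FPKM (5.53 ± 0.15), and TBX19, the corticotroph factor, 28.2 against 0.0525 FPKM (4.53 ± 0.38). TBX19, ESR1 and FOXL2 overlapped between days only because library 984 lists them at 0, and PITX1 because library 981 does. SIX6, a factor of the eye field and the hypothalamic and pituitary region, was the exception, with 16.3, 43.4 and 70.8 FPKM at day 42 and 37.5, 49.5 and 73.9 FPKM at day 22 (-0.28 ± 0.17, adjusted p = 0.159).

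Receptors that carry hypothalamic signals to the anterior lobe were higher at day 42 in 8 and lower in 2 of 12 tested (14 of 15 members listed at both days), with a median of 2.48. With no filter on low values all 14 were tested, and again 8 were higher and 2 lower. GHRHR, the receptor of growth hormone-releasing hormone, had 17.8, 104 and 204 FPKM at day 42 and at most 0.10 FPKM at day 22, with 7 glands listed at 0 (6.47 ± 0.24, adjusted p = 7.42e-22). GNRHR, the receptor of gonadotropin-releasing hormone, had 11, 30.5 and 102 FPKM at day 42 and was listed at 0 in all 13 glands of day 22, so no fold is given. The receptors CRHR1, DRD2, TRHR, VIPR1, CRHR2 and SSTR5, for corticotropin-releasing hormone, dopamine, thyrotropin-releasing hormone, vasoactive intestinal peptide, urocortins and somatostatin, rose by 2.43 to 3.67 on the log2 scale. ADCYAP1R1 and VIPR2, receptors of pituitary adenylate cyclase-activating peptide and its relatives, went the other way. ADCYAP1R1 had 0, 0.0714 and 0.659 FPKM at day 42, against 4.26, 6.42 and 22.5 FPKM at day 22 (-3.04 ± 0.18, adjusted p = 2.03e-16), and VIPR2 at most 0.121 FPKM at day 42, against 1.56 to 8.22 FPKM at day 22 (-2.27 ± 0.13, adjusted p = 1.05e-16). SSTR1 (0.49, adjusted p = 0.113) and SSTR2 (0.88, adjusted p = 0.00297, under 2-fold) were not called.

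Genes that cut, pack and release prohormones were higher in 8 and lower in 1 of the 11 tested (17 members), with a median of 2.02. PCSK1, the convertase that makes the first cuts in POMC, had 18.5, 155 and 469.9 FPKM at day 42 and 1.94, 3.95 and 7.13 FPKM at day 22 (4.59 ± 0.33, adjusted p = 4.98e-14). SCG3, a granin of the granule membrane, had 155, 542 and 2088 FPKM at day 42, against 75.3, 102 and 132 FPKM at day 22 (2.35 ± 0.21, adjusted p = 7.9e-12). Both steps were smaller than those of the hormones, and both genes were above 1 FPKM in every day 22 gland. PCSK2, CPE and PAM, which act later in the same chain, rose by 2.02, 1.58 and 1.35, though CPE (0.94) and PAM (0.75) stayed under 2-fold on the TPM scale. SLC30A8, a zinc transporter of secretory granules in pancreatic beta cells of mammals, fell by 2.98, with at most 0.0490 FPKM at day 42 and 3.76 to 13.2 FPKM at day 22. CADPS2 (0.01) and STX1A (0.21) were not called.

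Neuropeptide genes divided. Of 9 tested (11 members), 6 were higher and 2 lower at day 42, and the median was 1.67. CARTPT, which encodes a peptide that restrains feeding when given to the brain (Entrez 100858488, chromosome Z, 72967896 to 72968815), had 727, 1803 and 4528 FPKM at day 42, against 0, 0.120 and 0.682 FPKM at day 22 with 5 glands listed at 0 (10.61 ± 0.19, adjusted p = 7.29e-31). GRP, gastrin-releasing peptide, had 418, 2167 and 6325 FPKM at day 42 and 0, 10.9 and 79.9 FPKM at day 22 (7.10 ± 0.50, adjusted p = 2.1e-14). The opioid precursor PENK rose by 3.98 ± 0.33 and PDYN by 2.19 ± 0.29, and GAL and NPY, galanin and neuropeptide Y, by 1.67 ± 0.46 and 1.36 ± 0.33. NTS (neurotensin, -1.60) and VIP (-1.03, adjusted p = 0.0116) were lower and overlapped between days. With the range of library numbers in the fit, GAL (1.22, adjusted p = 0.57), NPY (1.52, adjusted p = 0.275), NTS (-0.68, adjusted p = 0.41) and VIP (0.04, adjusted p = 0.987) were no longer called, and VIP no longer had the direction of its fall. VIP was also under 2-fold without any one of the libraries 984, 995, 1010, 1014, 1077 and 1418 of day 42 or 1520, 1522, 1549 and 1555 of day 22 (-0.887 to -0.997). That fit draws its estimate from the 4 libraries of the shared range. AGR2, a disulfide isomerase of secretory epithelia that belongs to no list, was among the 12 largest rises, with 233, 339 and 558 FPKM at day 42 and at most 0.825 FPKM at day 22 (8.21 ± 0.14, adjusted p = 1.17e-31).

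The myelin list had the lowest median. Of 20 members, 9 were listed at both days and tested, 8 were lower at day 42 and none overlapped among those 8. The median was -7.43. PLLP, plasmolipin, a membrane protein of myelin, was listed at 0 in 9 of 17 glands of day 42 and reached 2.53 FPKM, against 544, 1220.0 and 1509.7 FPKM at day 22 (-9.69 ± 0.19, adjusted p = 9.23e-30). CLDN11, the claudin of myelin tight junctions, had 3.29, 6.15 and 16.8 FPKM at day 42 and 690.3, 977 and 1524 FPKM at day 22 (-6.95 ± 0.17, adjusted p = 2.17e-27). UGT8, which makes the galactolipids of myelin, had 1.03, 8.65 and 18.1 FPKM at day 42 and 670.5, 1007 and 1313 FPKM at day 22 (-6.87 ± 0.26, adjusted p = 6.68e-22). The 544 FPKM of PLLP was the lowest level of these 3 genes in any day 22 gland. BCAS1, NINJ2, ASPA and the small heat shock protein CRYAB fell by 8.02, 7.43, 4.50 and 9.10. MOG, a surface protein of the outermost myelin layer, had 1.55 FPKM at the median of day 42 and 4.18 at that of day 22 and fell just short of 2-fold (-0.997, adjusted p = 0.000407). Further genes among the 12 largest falls belong to no myelin list: HEBP2, a heme-binding protein, had 0.774, 5.17 and 10.1 FPKM at day 42 and 562, 711 and 881 FPKM at day 22. TNNC1, a troponin of slow muscle, TSPAN2, a tetraspanin of oligodendrocytes in mammals, and LOC416927, a carbonic anhydrase 15-like gene, fell by 6.64, 6.52 and 7.06.

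**Figure D3:**
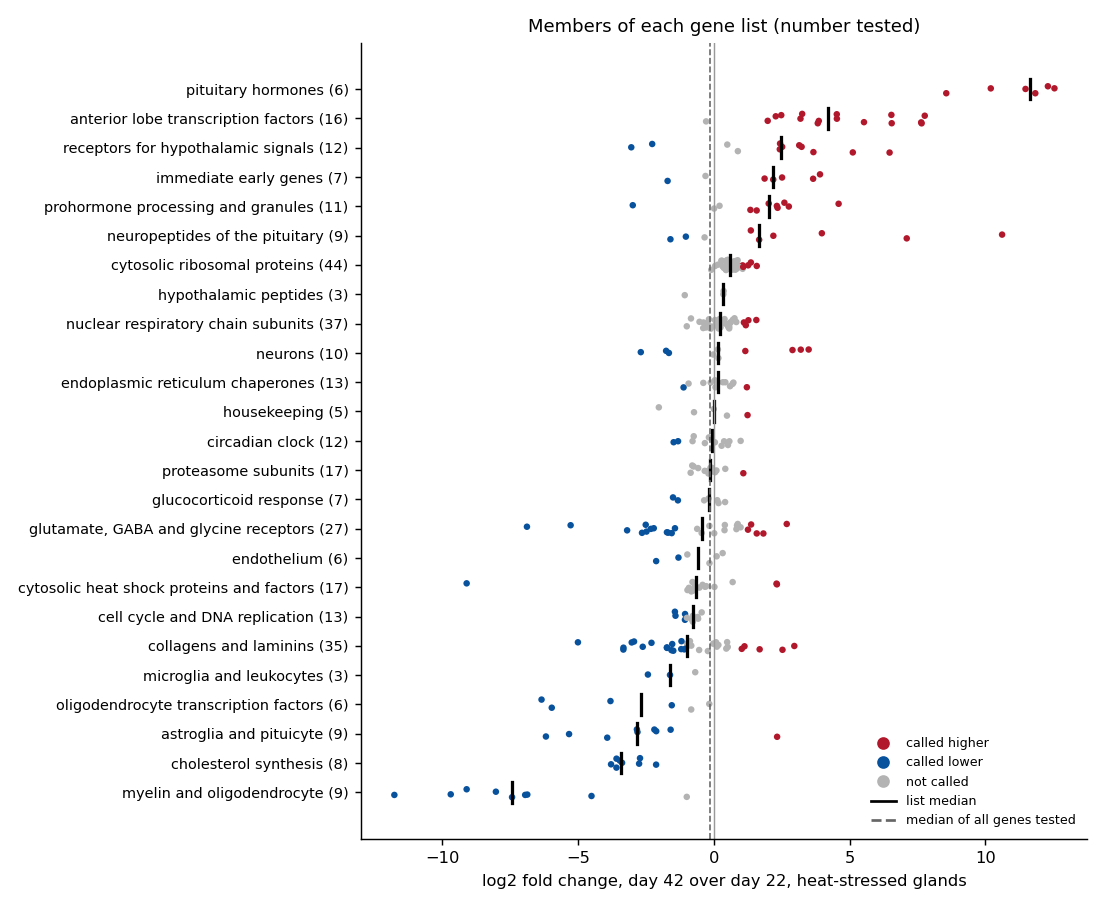
Each dot is 1 tested member of a gene list with 3 or more members tested, placed by its log2 fold change, day 42 over day 22, on the x axis, with lists ordered by their median. Hormones stand highest with a median of 11.65 and myelin genes lowest at -7.43, and the dashed line gives -0.15, the median of all genes tested.

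Of the genes listed here as oligodendrocyte transcription factors, 4 of 6 tested (9 members) were lower and none higher at day 42. In which cells these genes, OLIG3 among them, were expressed was not measured. OLIG3 had 0, 0.339 and 1.18 FPKM at day 42, against 26.9, 114 and 233 FPKM at day 22 (-6.34 ± 0.21, adjusted p = 2.45e-23). NKX6-2, a homeobox factor of myelinating cells, had 0, 0.561 and 1.78 FPKM at day 42 and 67.1, 106 and 135 FPKM at day 22 (-5.97 ± 0.15, adjusted p = 1.33e-26). SOX8 fell by 3.81 and ST18 by 1.55. MYT1 (-0.17, adjusted p = 0.387) and NKX2-2 (-0.83, adjusted p = 0.00614, under 2-fold) were not called, and ST18 lost its call with the number range in the fit (adjusted p = 0.234).

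Astroglia, which pituicytes resemble, gave 8 lower genes and 1 higher among 9 tested (14 members), with a median of -2.81. SLC6A9, a glycine transporter of glia, had 0.420, 1.17 and 2.49 FPKM at day 42 and 80.4, 158 and 202 FPKM at day 22 (-6.18 ± 0.15, adjusted p = 2.79e-27). VIM, the intermediate filament vimentin, had 34.8, 109.5 and 251 FPKM at day 42 and 1229, 1464 and 2457 FPKM at day 22 (-3.92 ± 0.22, adjusted p = 3e-17). GJA1, the gap junction protein connexin 43, fell by 5.33 ± 0.27. RAX, a homeobox factor of the hypothalamus and of pituicytes in mammals, went up instead, with 0, 9.04 and 20.1 FPKM at day 42 and 0.0909, 0.299 and 2.17 FPKM at day 22 (2.33 ± 0.35, adjusted p = 7.57e-07). With the number range in the fit, 5 of the 8 falls were still called, and SLC1A3, SLC1A2 and GLUL were not.

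Neuronal genes gave no single direction, with 4 higher and 3 lower of 10 tested (14 members). Over all genes 12.3% were higher and 20.1% lower. STMN2, a tubulin-binding protein of growing axons, had 76.3, 171 and 286 FPKM at day 42 and 3.83, 12.1 and 57.4 FPKM at day 22 (3.49 ± 0.28, adjusted p = 8.75e-13). SLC17A6, the vesicular glutamate transporter (3.20), NEFL, the light neurofilament (2.90), and SNAP25 (1.16) were also higher, whereas GAD2 (-2.69) and SLC32A1 (-1.76), which make and load GABA, and ELAVL4 (-1.65) were lower. Those 3 falls and SNAP25 were not called with the number range in the fit. Receptors for glutamate, GABA and glycine were lower in 12 and higher in 5 of 27 tested (37 members), with a median of -0.45, and the split was 9 and 3 with the number range in the fit. GRM3, a metabotropic glutamate receptor, had at most 0.635 FPKM at day 42 and 36.6, 41.7 and 62.7 FPKM at day 22 (-5.27 ± 0.10, adjusted p = 6.46e-30). GLRA4, a glycine receptor subunit, fell by 6.88 ± 0.19. The GABA receptor subunit GABRG1 rose by 2.68 ± 0.31. Of 10 hypothalamic peptide genes AGRP, GHRH and SST were tested, and none was called. SST (-1.07, adjusted p = 0.0589) was called lower on the TPM scale (-1.50, adjusted p = 0.00607), with a pseudocount of 0.1 (adjusted p = 0.0281) and without any one of the libraries 983, 984 and 1319 of day 42 or 1517, 1519 and 1521 of day 22 (adjusted p = 0.00464 to 0.0456). AVP and OXT, the hormones of the posterior lobe, were not analysed here.

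All 8 tested genes of cholesterol synthesis and its control (19 members) were lower at day 42, none overlapped, and the median was -3.42. HMGCS1, an enzyme of the early steps, had 7.05, 21.5 and 61.1 FPKM at day 42 and 195, 264 and 437 FPKM at day 22 (-3.58 ± 0.25, adjusted p = 1.34e-14). CYP51A1 and LSS, of the sterol ring steps, fell by 3.78 and 3.59, and INSIG1, which senses sterols, by 3.46. Both CYP51A1 and LSS overlap another gene on the version 4 genome, AKAP9 and S100B. The levels of myelin genes moved in the same direction across the same glands, and their part in this was not tested. FDFT1 (-2.13) lost its call with the number range in the fit (adjusted p = 0.0914) and the other 7 kept theirs.

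Collagens and laminins were lower in 16 and higher in 5 of 35 tested (43 members), with a median of -0.98. COL1A2, a chain of the main fibrous collagen, had 8.77, 23.5 and 80.6 FPKM at day 42 and 109.6, 229 and 586 FPKM at day 22 (-3.33 ± 0.27, adjusted p = 8.58e-13), and COL9A3 fell by 5.00 ± 0.19. COL4A4, a basement membrane chain, was higher, with 4.33, 13.5 and 30.8 FPKM at day 42 and 0.403, 1.03 and 1.97 FPKM at day 22 (2.96 ± 0.20, adjusted p = 7.51e-15). With the number range in the fit the split was 6 lower and 5 higher. Of 13 cell cycle genes tested (18 members), TYMS, CDK1, MCM2 and CCNA2 were lower by 1.06 to 1.43 and none was higher. For both lists the shares over all genes were 20.1% lower and 12.3% higher. On the TPM scale all 13 were lower (median -1.37), where the median of all genes was -0.71, and 7 were lower with a pseudocount of 0.1. With the number range in the fit none of the list was called, and CDK1 was under 2-fold without library 1015 (-0.99).

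Markers of other cell types, and the lists after them, were likewise read against the 20.1% of all genes called lower and the 12.3% called higher. Endothelial genes were lower in 2 of 6 tested (8 members), VWF (-2.12) and FLT1 (-1.30). With the number range in the fit neither was called, and 2 other endothelial genes were higher. Of the 3 leukocyte genes tested (11 members), SPI1 (-1.61) and LY86 (-2.43) were lower and PTPRC (-0.69, under 2-fold) was not called. All 3 were lower on the TPM scale, and with the number range in the fit none was called. The single muscle gene tested, ACTA1, was not called (0.02, adjusted p = 0.97), and none of the 5 pineal or 6 blood genes reached the test. Cytosolic ribosomal protein genes stayed close together, with 5 of 44 tested (45 members) higher, none lower, and a range of -0.09 to 1.58. Their median of 0.58 became -0.06 on the TPM scale, where none was called, and 22 were higher with the number range in the fit. Subunits of the respiratory chain were higher in 4 of 37 and those of the proteasome in 1 of 17, with none lower and medians of 0.21 and -0.12. Neither share of higher genes, nor that of the ribosomal list, exceeded the 12.3% over all genes. On the TPM scale none of either set was higher, 4 of each were lower, and the medians were -0.40 and -0.76.

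The compared days also differ in heat exposure, and heat shock genes, which encode chaperones that cells make when proteins unfold, are given for that reason. Of 17 cytosolic chaperones and factors tested (25 members), 2 were higher and 1 lower at day 42, and the median was -0.64. HSPB8, a small heat shock protein of chaperone-assisted autophagy, had 62.3, 92.2 and 219 FPKM at day 42, against 8.97, 17.2 and 45.5 FPKM at day 22, without overlap (2.32 ± 0.20, adjusted p = 5.02e-12). HSPB1 had 31.8, 128 and 315 FPKM at day 42 and 0, 32.4 and 65.3 FPKM at day 22 (2.31 ± 0.43, adjusted p = 2.44e-05), and was not called with the number range in the fit (1.07, adjusted p = 0.6). The lower gene, CRYAB, is also a gene of oligodendrocytes and stands in the myelin list: it had 0, 0.608 and 2.33 FPKM at day 42 and 540.3, 857 and 1268 FPKM at day 22 (-9.10 ± 0.17, adjusted p = 7.29e-31). HSPA8, the constitutive member of the 70 kDa family, had 317, 767 and 1199 FPKM at day 42 and 888, 1228 and 2956 FPKM at day 22, just short of 2-fold (-0.97 ± 0.20, adjusted p = 6.4e-05). HSPA2 (-0.72), HSP90AA1 (-0.77), HSPH1 (-0.79), HSPD1 (-0.83) and AHSA1 (-0.92) had adjusted p of 2.16e-06 to 0.0269 and were likewise under 2-fold. On the TPM scale, where the median of all genes was -0.71, HSPA8, HSPA2, HSPH1, HSP90AA1, HSPD1 and AHSA1 passed the 2-fold limit and 11 of the 17 were lower. HSP25, another small heat shock protein, varied within each day, from 0 to 68.6 FPKM at day 42 and from 2.15 to 101 FPKM at day 22 (-0.28, adjusted p = 0.612).

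In the endoplasmic reticulum, 1 of 13 tested chaperone genes (16 members) was higher and 1 lower. PDIA3, a disulfide isomerase, had 271, 618 and 1185 FPKM at day 42 and 214, 238 and 427 FPKM at day 22 (1.22 ± 0.19, adjusted p = 1.67e-06), but only 0.57 on the TPM scale. DNAJB9 (-1.11, adjusted p = 0.000601) was under 2-fold without library 1015 (-0.98). HSPA5, the chief chaperone of this compartment, did not pass (0.16 ± 0.24, adjusted p = 0.595), and the median of the list was 0.16. On the TPM scale it was -0.49, with 3 genes lower and none higher. The list of the glucocorticoid response (10 members) held genes that glucocorticoids induce in many tissues and their receptor, NR3C1. Of 7 tested, TSC22D3 (-1.32) and KLF9 (-1.50) were lower and none was higher, neither called with the number range in the fit. FKBP5, a chaperone of the glucocorticoid receptor, was not called (0.17, adjusted p = 0.42). Immediate early genes, which cells switch on within minutes of a stimulus, were higher in 5 and lower in 1 of 7 tested (13 members), with a median of 2.19. EGR1 had 60.1, 119 and 422 FPKM at day 42 and 4.61, 8.38 and 13.1 FPKM at day 22 (3.91 ± 0.26, adjusted p = 3.74e-15), and FOS 25.3, 73.4 and 138 FPKM at day 42 and 3.01, 3.95 and 7.53 FPKM at day 22 (3.66 ± 0.22, adjusted p = 3.2e-16). ATF3, of the same class, was lower (-1.70 ± 0.15) and JUN was not called (-0.31, adjusted p = 0.179). Of 12 clock genes tested (15 members), TEF (-1.32) and BHLHE41 (-1.48) were lower and none was higher, a share near the 20.1% lower over all genes. The count of lower genes was 4 on the TPM scale, and 4 with a pseudocount of 0.1, where 1 was higher. With the number range in the fit neither was called and 1 other was higher. CIRBP, a protein that cold induces, was not called (-0.08, adjusted p = 0.697).

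Whether the change between days was particular to heat-stressed birds was tested against the controls, which are other birds, with the difference between those changes over 50 libraries and 8285 genes. By limma no gene passed an adjusted p of 0.05, and 159 genes (1.92%) had an unadjusted p under 0.05. That share is below the 0.05 expected with no difference in any gene. The lack of calls does not show that the changes were equal. Counts stayed at 0 under another pseudocount, other filters and other scalings and without library 984, but not when libraries with a relative depth under 0.2 were left out. That limit removed most day 42 heat-stressed libraries, whose median relative depth was 0.196. Of those numbered below 1100 it kept only library 982. The day 42 controls 1013 and 1414 were removed too. In that fit 678 genes had an unadjusted p under 0.05, against 159 in the main fit. Their share is above the 0.05 expected with no difference in any gene. By limma 3 genes passed there, among them MPND, a protease of unsettled role (-2.80, adjusted p = 0.00627), and FRY (-1.74, adjusted p = 0.0204). MPND had 0, 3.47 and 13.9 FPKM in day 42 heat-stressed glands and was listed at 0 in all 13 of day 22, with 0, 12.9 and 33.4 FPKM in day 42 controls and 0 in all 10 controls of day 22. Its difference of changes therefore compares the day 42 glands of the houses alone. Across the 8285 genes the changes between days in heat-stressed and in control birds had a Pearson r of 0.973, and 99.8% of the 2663 called genes in that fit had the same sign in controls, which describes these libraries and carries no test since genes are not replicates.

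**Figure D4:**
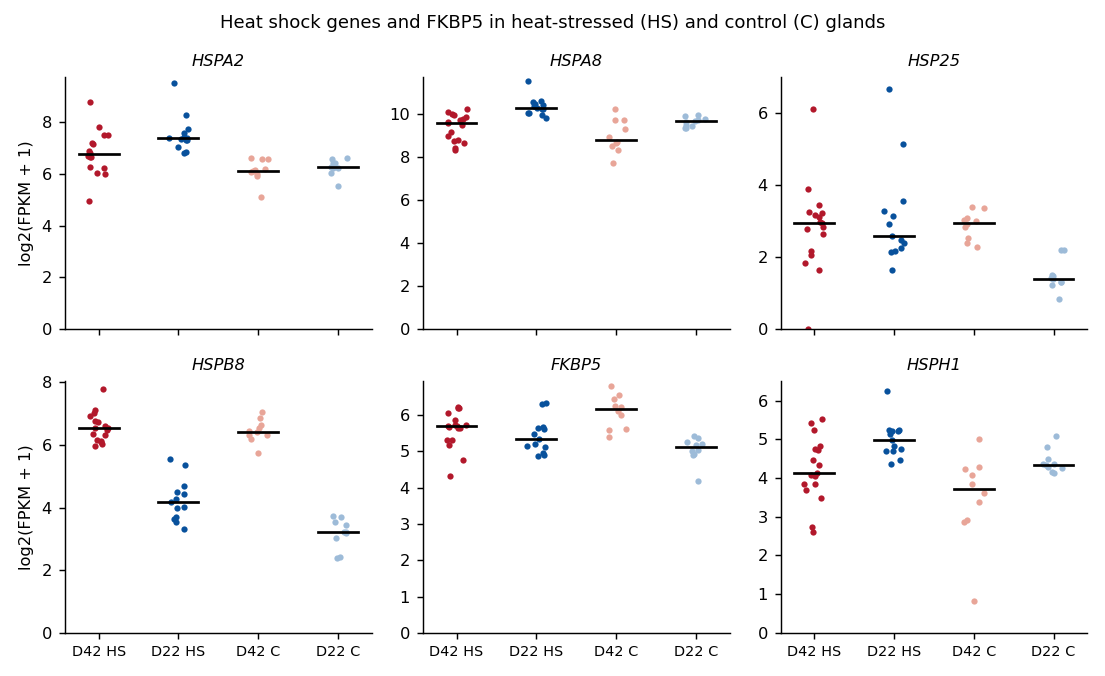
Each point is 1 gland, with log2(FPKM + 1) on the y axis and the groups day 42 heat stress (n = 17), day 22 heat stress (n = 13), day 42 control (n = 10) and day 22 control (n = 10) along the x axis, bars giving medians. HSPB8 stands higher at day 42 in both houses, with medians of 92.2 and 85.3 FPKM at day 42 against 17.2 and 8.34 FPKM at day 22.

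Among the 12 genes with the smallest p of that difference were RACGAP1, a regulator of cell division (-0.97 ± 0.23, unadjusted p = 9.21e-05, adjusted p = 0.763), FKBP5 (-0.88 ± 0.27, unadjusted p = 0.00213) and HSPB8 (-0.95 ± 0.30, unadjusted p = 0.00242), the last 2 with an adjusted p of 0.999. FKBP5 had medians of 50.6 FPKM in day 42 and 39.3 FPKM in day 22 heat-stressed glands, and of 71.1 FPKM in day 42 and 33.6 FPKM in day 22 controls. HSPB8 changed by 2.32 between days in heat-stressed and by 3.27 in control glands. The higher level of HSPB8 at day 42 was thus also present in birds kept at 25 °C. In the same limma fit HSPB8 was higher in heat-stressed than in control glands at day 22 (1.06, adjusted p = 0.0461). It was not called between them at day 42 (0.11, adjusted p = 0.992). For HSPA2, the heat-stressed medians were 109 FPKM at day 42 and 166 FPKM at day 22, and the control medians 69.2 and 76.2 FPKM (difference of changes -0.59, adjusted p = 0.999). HSPA8 had heat-stressed medians of 767 FPKM at day 42 and 1228 FPKM at day 22, and control medians of 449 and 807 FPKM.

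The heat-stressed birds of days 26, 32 and 40 lie between the compared days in age, in tables of their own. Their labels name 2 hours, 4 hours and a week of heat, so they may not form a single series of exposure with the compared days. No test was run on them. For the genes called higher, the median of day 26, 32 or 40 was nearer to that of day 22 than to that of day 42, on the log2 scale, in 90.9% of 971, 92.0% of 973 and 96.3% of 955 listed genes. For the genes called lower the shares were 77.2% of 1627, 70.8% of 1631 and 93.5% of 1608. At day 40, only 2 days younger than the older group by label, GH had 0, 15.4, 18.0, 19.2 and 22.9 FPKM in its 5 glands and CARTPT at most 0.107 FPKM. PLLP in the same 5 glands had 626 to 1398 FPKM. For these genes the glands labelled day 40 were close to the day 22 glands, and the gap lay between the libraries labelled day 40 and day 42. Day 26 glands stood apart in GH, with 52.8, 55.3 and 78.6 FPKM in 3 birds and 0 and 0.618 FPKM in the other 2. HSP25, the small heat shock protein that varied within days 42 and 22, had 76.5 to 2256 FPKM at day 26, labelled 2 hours. It had 3.77 to 8.66 FPKM at day 32, labelled 4 hours, and 1.40 to 5.10 FPKM at day 40. Day, table and labelled exposure change together among these glands, and their parts were not tested. EGR1 at days 26, 32 and 40 had at most 6.08, 9.42 and 14.8 FPKM. FOS had 4.66 to 7.18 FPKM at day 26, 3.26 to 18.7 FPKM at day 32 and 5.99 to 28.6 FPKM at day 40. Its highest day 40 level lay above its lowest day 42 level of 25.3 FPKM.

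**Figure D5:**
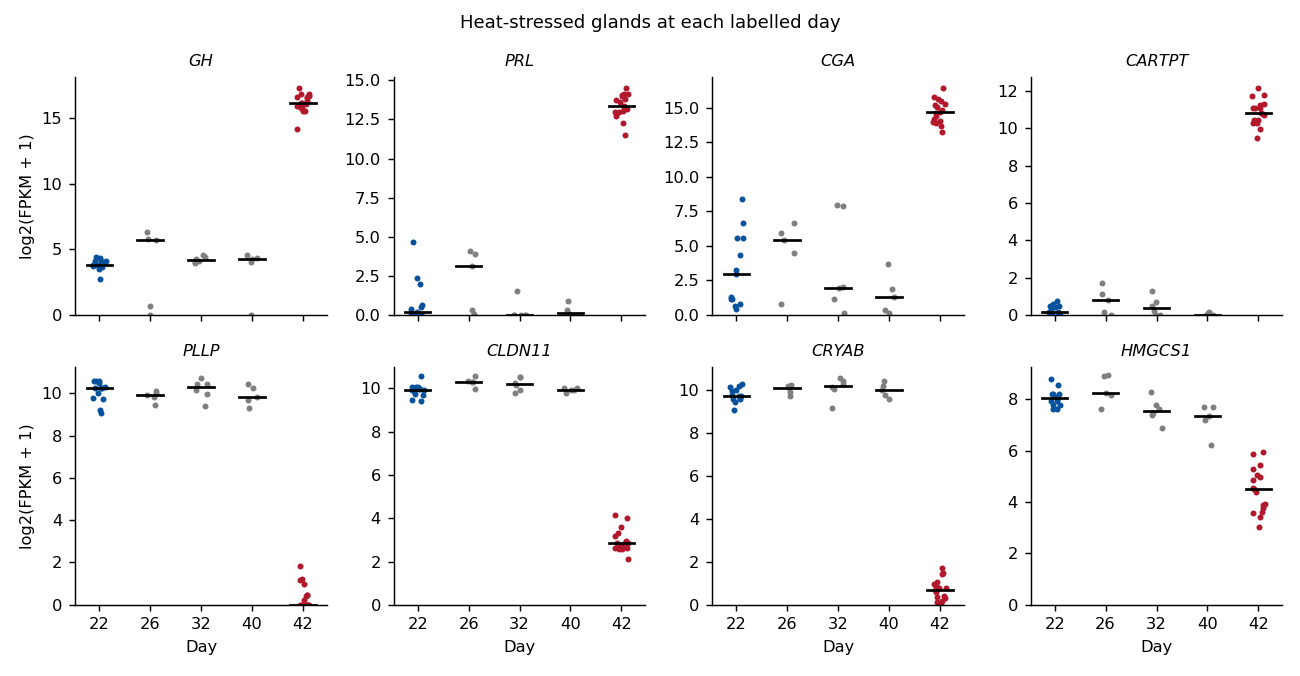
Each point is 1 heat-stressed gland at day 22 (n = 13), 26 (n = 5), 32 (n = 6), 40 (n = 5) or 42 (n = 17), with log2(FPKM + 1) on the y axis and bars for medians. In all 8 genes drawn, no gland of the 4 earlier days overlaps those of day 42, which stand above them for GH, PRL, CGA and CARTPT and below them for PLLP, CLDN11, CRYAB and HMGCS1.

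A few abundant genes took up a larger share of each day 42 library. The 10 most abundant genes held 27.4 to 59.3% of all FPKM (median 40.7%) at day 42 and 10.04 to 23.5% (median 14.0%) at day 22, a difference in means of 27.7 percentage points (two-sided permutation test, p = 2e-05, the smallest that 100000 resamples can give). The FPKM sum per library was 325709 to 612128 at day 42 and 254687 to 278716 at day 22. Some genes split by library rather than by day. EEF1A1, an elongation factor that every cell uses, was listed at 0 in 9 of 17 glands of day 42 and at 1135 to 2155 FPKM in 7, against 1146 and 1162 FPKM in the day 22 libraries 1282 and 1283 and 34.3 to 84.2 FPKM in the other 11. ARIH1, a ubiquitin ligase named here after its values were seen, was 2806 to 75727 FPKM in 13 glands of day 42 and 18.5 to 29.0 in the other 4, against 3750.4 to 18839 FPKM in 4 glands of day 22 and 18.7 to 23.2 FPKM in the other 9. It was called higher (4.91, adjusted p = 0.00364), though both levels occurred on both days, and was not called with the number range in the fit (0.72, adjusted p = 0.921).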

How the data were processed

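RNA-seq libraries, 1 per whole pituitary gland, were grouped by the treatment and day in their labels. The deposited values are FPKM, in 1 table per day, that the authors made from reads aligned to version 4 of the chicken genome (software Bowtie, TopHat and Cufflinks), with versions and annotation not given in the sources used here. In FPKM a very abundant gene lowers the values of all others in its library. Tables were joined by gene symbol, and 3 columns of the day 22 table that no label names were not used. Another 2 labelled samples, both heat-stressed glands of day 42, were not analysed here.

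Genes with a mean of 1 FPKM or more over the glands compared were tested on log2(FPKM + 1) with the moderated test of limma 3.58.1 (limma-trend, R 4.3.3), Benjamini-Hochberg adjustment over all genes tested, a threshold of 0.05 and a 2-fold minimum. The difference of changes was a contrast over 4 groups and 50 libraries with no 2-fold minimum. The share of FPKM in the 10 most abundant genes was compared by a permutation test with 100000 resamples. Tables were handled in pandas 2.3.3 and numpy 2.4.6, and figures drawn in matplotlib 3.10.9 (Python 3.11.15; permutations in scipy 1.17.1). The fit was tested on simulated data drawn independently for each gene. These held no effect of table, number range or library depth, so that test does not cover those features of the glands. Genes named were those of the lists, the 12 largest rises and the 12 largest falls among called genes without overlap, and the 12 with the smallest p of the difference of changes. Some members of the lists are counted but not reported here by name. Members and lists were chosen with earlier results of these data known. Read depth was judged only from the steps between low values. Alternatives were another pseudocount, other filters, rescaled values, a rank test, no 2-fold minimum, subsets of libraries, the range of library numbers as a term, and, for the day comparison, leaving out each bird.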

Additional observations from a re-analysis of the deposited data

Results flagged for a closer look

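The levels of 10 genes in the heat-stressed glands of days 26, 32 and 40 gave 30 sets, each of 1 gene on 1 day. By Dixon's critical values, 4 sets held a value far from the rest, and these came from 2 libraries. Those critical values flag about 1 in 20 sets by chance if levels are normally distributed. FPKM levels with values of 0 among them need not be, so the rate may not hold here. At day 32, the heat-stressed library 1303 had 1.94 FPKM of PRL, where the other 5 were listed at 0, so any level above 0 would have been flagged. It also had 203 FPKM of POMC, where the others had 0.978 to 41.4 FPKM. At day 40, library 1278 had 0.853 FPKM of PRL, against 0 to 0.240 FPKM in the other 4, and 11.8 FPKM of CGA, against 0.109 to 2.78 FPKM. All of these lie far below the day 42 levels of the same genes.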

How the results depend on the processing

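The counts of 1016 higher and 1658 lower genes depended on scaling and on the libraries compared. With genes of a mean of 5 FPKM or more, 662 were higher. On the TPM scale 639 were higher and 3005 lower. With the range of library numbers in the fit 1002 were higher and 807 lower. Within libraries 1200 to 1400, with 2 birds of each day, 1517 were higher and 1034 lower. In both of these settings more genes were higher than lower, the reverse of the main fit. Without a 2-fold minimum 1988 were higher and 2998 lower. Leaving out each bird gave 985 to 1063 higher and 1584 to 1728 lower genes. The interaction of day and heat gave 0 genes without library 984, and 3 without libraries of relative depth under 0.2. The latter setting drops most day 42 heat-stressed libraries.

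The other counts over all genes stayed within 1.5 times, but of 29 gene lists 20 had a count of higher or lower members that moved by more in some setting. Of 168 named genes tested, 54 changed call or sign in some setting other than leaving out 1 bird. With the number range in the fit, whose day estimate rests on 4 libraries, 37 lost the call and kept their direction. VIP, lower over all 30 glands, reversed with the number range in the fit and within libraries 1200 to 1400 (0.036 in both), and the cause was not tested. No paired analysis was possible because each library has its own number and no number is shared between groups. The interaction without library 984, the count of genes nearer to day 22 or day 42 and the comparison of locus bounds were chosen after seeing the data. Low values are limited in day 42 libraries of low depth relative to their table, library 984 above all. Depth was not compared between the tables. Within the heat-stressed birds age, length of heat exposure and table cannot be told apart.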
